A study of Homo sapiens with 12 samples.

Results

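The genes described here are the nucleolar factors that assemble ribosomes, in H1299, a long-used human line of lung cancer cells that the labels call lung adenocarcinoma. The members were taken by a rule on gene symbols, set with earlier results of these data known, and 75 of the 59577 genes in the deposited table matched. RNA was sequenced from 6 samples grown under normoxia (21% oxygen, 5% CO2, 74% nitrogen) and 6 samples kept for 24 h under hyperoxia (60% oxygen, 5% CO2, 35% nitrogen). All 12 are of 1 cell line and differ only in the gas mixture, as far as the labels go. The values are TPM, a measure of transcript abundance that the authors scaled by transcript length and by the total of each sample. The comparison asks which transcripts of these cells differ after a day at raised oxygen. Nothing in the labels says whether the 6 samples of a group were separate cultures, and each p-value therefore reflects the scatter among these 12 samples, part of which could be technical.

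A ribosome starts in the nucleolus as a long precursor RNA made by RNA polymerase I. Small nucleolar ribonucleoproteins (snoRNPs) guide its chemical modification: those with box C/D RNAs add methyl groups and those with box H/ACA RNAs make pseudouridine. The small subunit (SSU) processome, built around the U3 snoRNP, folds and cuts the part that becomes the 40S subunit, a separate set of factors assembles the 60S subunit, and the RNA exosome trims or destroys precursor pieces from their 3′ ends. Growing tumour cells run this pathway at a high rate, and many of its genes carry the E-box, the short DNA sequence bound by the transcription factor MYC and related proteins.

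Of the 74 members that were tested, 33 rose under hyperoxia, none fell and 41 did not pass the test. Genes averaging 1 TPM or more across the 12 samples were tested, and a gene passed when its Benjamini-Hochberg adjusted p from limma, computed over all 14520 tested genes, was below 0.05. Over all tested genes 17.3% passed, 11.7% rising and 5.63% falling. In bulk RNA, fewer cells with a transcript and less of it per cell cannot be told apart. Fold changes are given as log2 differences of log2(TPM + 1), which understate the changes of genes near 1 TPM. The median log2 fold change of the members was 0.15, beside 0.03 over all genes tested. At an unadjusted p below 0.05 there were 44 members higher and 1 lower, beside 19.7% and 10.9% of all tested genes. The exact rank-sum test called 23 members higher and none lower, beside 8.29% and 3.55% of all.

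The changes that passed were small and all upward. The mean TPM of the 33 genes that rose was between 10.02% and 37.5% higher than in normoxia, with a median of 17.4%. In none of them did the mean reach 1.5 times the normoxia mean. Of the 41 that did not pass, 33 had a positive and 8 a negative fold change. In 19 of the members every hyperoxia sample lay above every normoxia sample, all of them among the 33, where 6.2% of all tested genes were separated in this way. In 25 of the 33, those 19 included, at least 5 hyperoxia samples lay above the whole normoxia range. The 33 were called on these same values, and the share of all tested genes with at least 5 such samples was not computed. This count therefore only describes the 33.

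**Figure D1:**
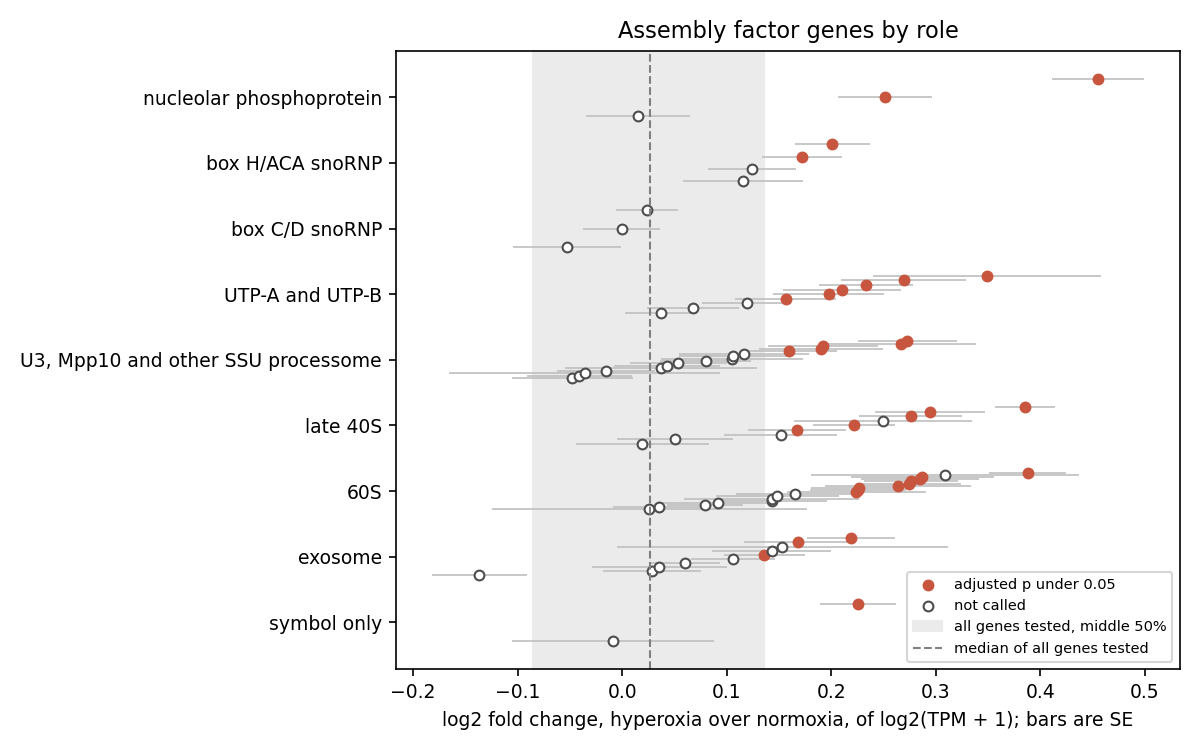
Log2 fold change of each tested assembly factor gene (x axis, hyperoxia over normoxia, on the log2(TPM + 1) scale, bars are SE) by role in ribosome assembly. Filled points are the 33 genes that passed the test. The dashed line is the median of all genes tested at 0.03. The 3 box C/D genes lie close to it, and 9 of the 18 genes of 60S assembly passed, where 11.7% of all tested genes rose.

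The scaling of the samples sets how many pass. Over all genes 67.5% of the calls were upward with TPM as deposited and 50.1% after median-of-ratios scaling, 52.2% with TMM factors and 54.3% after quantile normalisation. With each of these 3 scalings 21 members rose, against 8.82%, 9.09% and 9.9% of all tested genes. The 21 were among the 33, and the median log2 fold change of the 74 was 0.12 with each.

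The sequences below show a promoter motif that the symbol rule did not use and that part of the members carry. In RefSeq promoter windows (GRCh38.p14, 250 bases before to 50 bases after the annotated start), the E-box CACGTG, which reads the same on both strands, occurred in 24 of 65 members' promoters, or 36.9%. It occurred in 10.5% of 10053 promoters of tested genes. It was found in 12 of 29 promoters of genes that rose (41.4%) and in 12 of 36 promoters of genes that did not pass (33.3%). Of 29 E-boxes in all, 22 lay within 50 bases of the start. The median log2 fold change was 0.18 for the 24 genes with an E-box and 0.14 for the 41 without, and the difference between these was not tested. These are matches of letters in a window, not bound sites. No promoter was matched for BOP1, EXOSC1, EXOSC4, NOL10, NOLC1, NOP58, RRP12, RRP1B and UTP23.

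Shown first are 30-base windows, on the sense strand of each gene, from 8 genes that rose, with the E-box in capitals. They were chosen for holding the motif and start 12 bases before it, so they show what flanks it.
UTP4 at chr16:69132621-69132650, plus strand: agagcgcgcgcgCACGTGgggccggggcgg
NOL8 at chr9:92325342-92325371, minus strand: gctccgttgggaCACGTGaccagaagttag
NOP14 at chr4:2963374-2963403, minus strand: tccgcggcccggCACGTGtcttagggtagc
PES1 at chr22:30591880-30591909, minus strand: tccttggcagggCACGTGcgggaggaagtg
NOC3L at chr10:94362903-94362932, minus strand: tagggacttcggCACGTGtgtcattccccg
BYSL at chr6:41921515-41921544, plus strand: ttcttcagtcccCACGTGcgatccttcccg
GNL2 at chr1:37595917-37595946, minus strand: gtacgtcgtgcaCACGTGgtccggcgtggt
LTV1 at chr6:143843354-143843383, plus strand: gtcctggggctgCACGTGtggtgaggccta

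The same core stands near the start of 4 genes that did not pass, which is why they are shown beside the others.
FBL at chr19:39846356-39846385, minus strand: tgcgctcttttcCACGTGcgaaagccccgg
UTP20 at chr12:101280083-101280112, plus strand: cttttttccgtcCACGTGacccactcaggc
WDR43 at chr2:28894658-28894687, plus strand: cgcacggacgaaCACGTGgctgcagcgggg
PNO1 at chr2:68157885-68157914, plus strand: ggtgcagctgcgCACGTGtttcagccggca
The first base of the E-box is 16 bases before the start in UTP4, 9 before it in NOL8 and 10 before it in UTP20. In FBL it is base 7 of the transcript, in WDR43 base 4 and in PNO1 base 10, counted from 1 at the start.

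NOB1, the gene with the smallest adjusted p among the members, had 2 copies of the palindromic site of the factor NRF1, a regulator of housekeeping genes. That motif, searched as the 10 bases in capitals below, was found in 4 of 65 members' promoters (6.15%) and in 2.45% of all 10053. It was in 3 of the 29 that rose and in 1 of the 36 that did not pass. The 250 bases before the NOB1 start are given with both copies in capitals.
NOB1 at chr16:69754927-69755176, minus strand: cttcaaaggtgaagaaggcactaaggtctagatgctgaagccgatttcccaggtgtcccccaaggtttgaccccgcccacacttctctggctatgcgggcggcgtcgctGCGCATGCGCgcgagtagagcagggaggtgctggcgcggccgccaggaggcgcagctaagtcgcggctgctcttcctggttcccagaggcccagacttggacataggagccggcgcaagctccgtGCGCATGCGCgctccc
Of the other motifs searched on both strands, CCGGAAG, a site of ETS factors, was in 32.3% of the members' promoters and 20.4% of all. CCAAT was in 36.9% and 37.2%, TATAAA in 6.15% and 5.24%, and AAGATGGCG, part of a YY1 site, in 6.15% and 4.19%. TGACNNNGC, the core of the antioxidant response element, was in 15.4% of the members' promoters and 15.3% of all. It was in 6 of the 29 that rose and in 4 of the 36 that did not pass. The YY1 letters were in 0 of the 29 and in 4 of the 36. These differences were not tested. The median GC content of the windows was 62.7% for members and 65.3% for all.

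**Figure D2:**
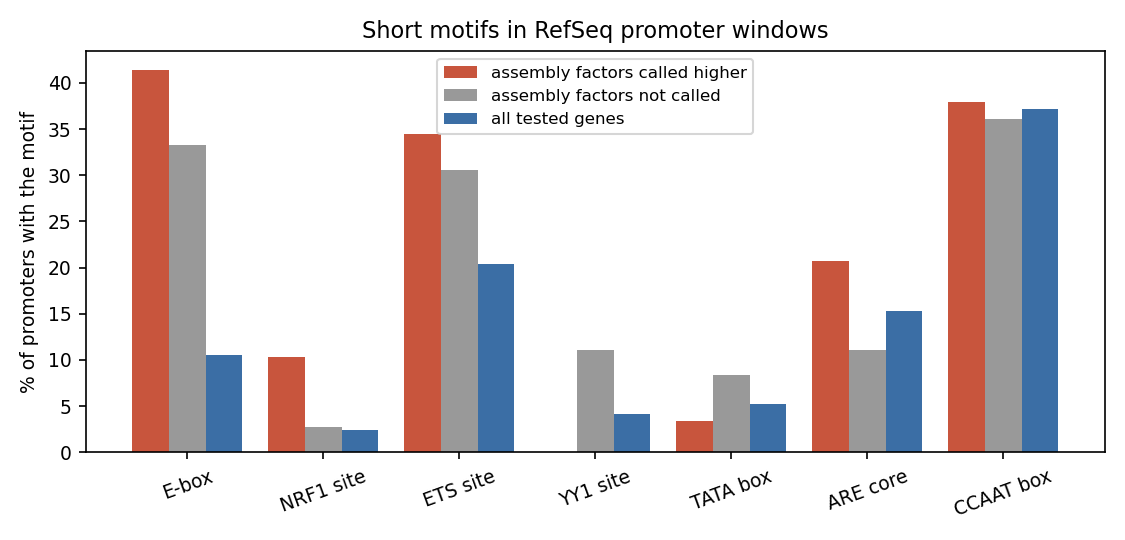
Share of RefSeq promoter windows holding each of 7 short motifs (y axis, %), for the 29 assembly factors that rose, the 36 that did not pass and all 10053 tested genes with a window. The E-box stands out, at 41.4%, 33.3% and 10.5%, and the CCAAT box is near 37% in every group.

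The largest rise among the nucleolar phosphoproteins, abundant proteins that organise the nucleolus, was that of NOLC1 (ENSG00000166197, also known as Nopp140), a chaperone that binds snoRNPs. Its TPM had a lowest, median and highest value of 137, 142 and 154 in normoxia and of 179, 197 and 213 in hyperoxia. All 6 hyperoxia samples lay above all 6 normoxia samples. The log2 fold change was 0.46 (SE 0.04, limma, Benjamini-Hochberg adjusted p = 2.22e-05), the largest of the 74 members.

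NCL (ENSG00000115053), which encodes nucleolin, a binder of precursor ribosomal RNA, ranged from 623 to 724 TPM in normoxia with a median of 676. In hyperoxia it ranged from 725 to 846 TPM with a median of 829, so the ranges met without overlapping. It rose by 0.25 on the log2 scale (SE 0.05, adjusted p = 0.00238). NPM1 (ENSG00000181163), which encodes nucleophosmin, was the most abundant member at 2909 ± 162 TPM in normoxia and 2942 ± 216 TPM in hyperoxia (SD, n = 6 each). Its ranges overlapped over nearly their whole length, from 2697 to 3128 and from 2622 to 3174 TPM, and its log2 fold change was 0.02 (SE 0.05, adjusted p = 0.876). GENCODE 29 lists 45 pseudogene copies of NPM1, whose summed TPM was 23.6 in normoxia and 21.3 in hyperoxia, so its value is uncertain to the extent that reads were split between them. The sign of NPM1 changed to -0.02 with median-of-ratios scaling and to -0.01 with TMM factors.

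The snoRNP core proteins are given by class. Among the 4 box H/ACA genes 2 rose, where 11.7% of all tested genes rose. DKC1 (ENSG00000130826), the pseudouridine synthase of the box H/ACA particles, ran from 148 to 158 TPM in normoxia (median 153) and from 162 to 186 TPM in hyperoxia (median 177). The groups did not overlap, and it rose by 0.20 (SE 0.04, adjusted p = 0.00238). NHP2 (ENSG00000145912), a core protein of the same particle, rose from 468 ± 16.9 to 528 ± 29.2 TPM (SD, 6 samples a group; log2 fold change 0.17, adjusted p = 0.00815), with 5 of 6 hyperoxia samples above the normoxia range. The protein-coding gene RMND5B, on the opposite strand, covers 27.4% of the exonic bases of NHP2 in GENCODE 29. It was listed at 21.2 TPM in normoxia and 19.5 TPM in hyperoxia. The other 2 core proteins did not pass: NOP10 measured 655 ± 34.1 and 714 ± 39.4 TPM (adjusted p = 0.0608) and GAR1 66.6 ± 3.59 and 72.4 ± 6.37 TPM (adjusted p = 0.191).

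None of the 3 box C/D core proteins passed, and none of them did at an unadjusted p below 0.05 or in the exact rank-sum test. With 17.3% of all tested genes passing in either direction, 0 of 3 is no result about the class. FBL (ENSG00000105202), which encodes fibrillarin, the methyltransferase, ran from 1107 to 1197 TPM in normoxia (median 1152) and from 1116 to 1217 TPM in hyperoxia (median 1182). Its log2 fold change was 0.02 (SE 0.03, adjusted p = 0.638), which turned to -0.01 with median-of-ratios scaling. NOP56 (ENSG00000101361) was at 421 ± 25 and 406 ± 28.7 TPM and NOP58 (ENSG00000055044) at 135 ± 5.19 and 135 ± 6.36 TPM (SD, n = 6 each). These are the scaffold proteins that hold the methyltransferase on the RNA, and both had overlapping groups. Whether the change differs between the box C/D and the box H/ACA genes was not tested.

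**Figure D3:**
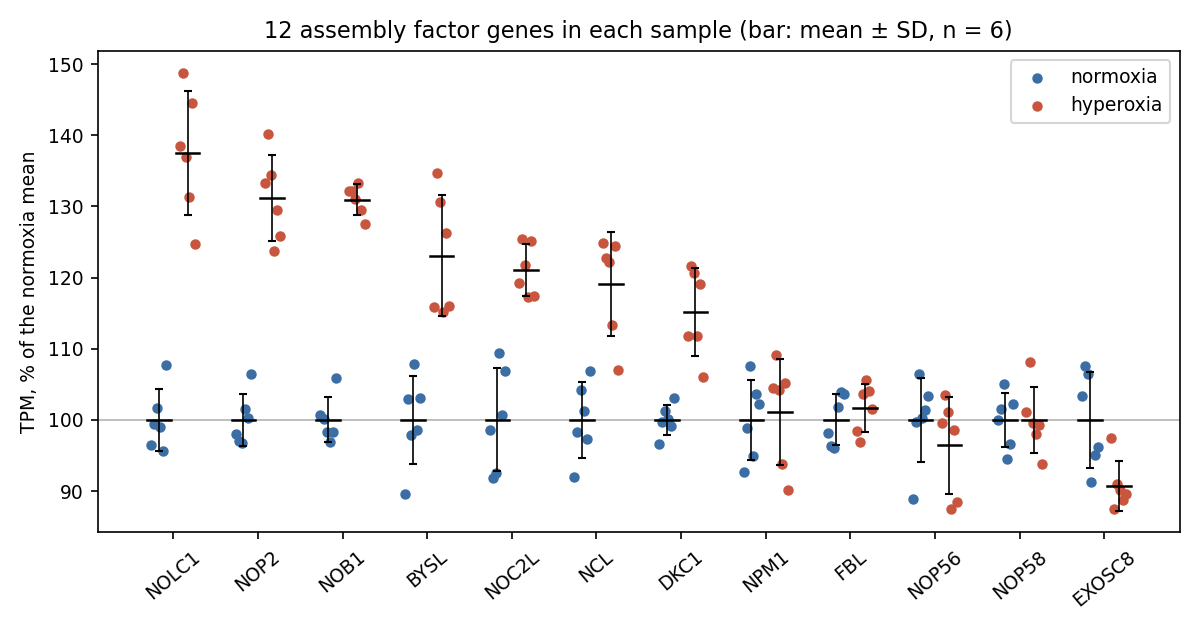
TPM of 12 members in each of the 12 samples as a percentage of the gene's normoxia mean (y axis), with the mean and SD of each group (n = 6). NOLC1, NOP2, NOB1, BYSL, NOC2L, NCL and DKC1 have all hyperoxia samples above all normoxia samples, while NPM1, FBL, NOP56, NOP58 and EXOSC8 overlap.

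The UTP-A and UTP-B complexes are the first to bind the precursor RNA and found the SSU processome. Of their 9 members here 6 rose and 3 did not pass, with a median log2 fold change of 0.20. Of all tested genes 11.7% rose. UTP15 (ENSG00000164338), a UTP-A subunit, had the largest rise at 0.35 but also the widest spread (SE 0.11, adjusted p = 0.0419), running from 13.4 to 18.3 TPM in normoxia and from 16.2 to 25.3 TPM in hyperoxia. Its call was lost in 18 of 26 alternatives, with an adjusted p between 0.018 and 0.197. WDR3 (ENSG00000065183), of UTP-B, rose from 13.8 ± 0.68 to 16.9 ± 1.51 TPM (SD, 6 samples a group; log2 fold change 0.27, adjusted p = 0.00798) with separate groups. UTP4, a UTP-A subunit, rose by 0.23 with separate groups and kept its call in every alternative. WDR43 (ENSG00000163811), also of UTP-A, did not pass, at 55.0 ± 1.00 and 56.4 ± 2.43 TPM (adjusted p = 0.507). After any of the 3 other scalings 2 of the 9 passed, and 3 passed without normoxia replicate 2, hyperoxia replicate 2 or hyperoxia replicate 5. Of all tested genes 8.82% to 9.9% rose with these scalings and 9.08% to 9.52% without 1 of these samples.

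Among the 16 other genes of the SSU processome 5 rose and 11 did not pass, with a median of 0.09. Of all tested genes 11.7% rose, against 31.2% of these. NOP14 (ENSG00000087269), a scaffold protein, ran from 54.8 to 65.5 TPM in normoxia (median 58.6) and from 68.0 to 78.3 TPM in hyperoxia (median 70.7). The groups were separate and the rise was 0.27 (SE 0.05, adjusted p = 0.00203). UTP11 rose by 0.27, UTP14A by 0.19, UTP25 by 0.19 and UTP3 by 0.16; these 4 lost their calls in 8, 10, 19 and 12 of the 26 alternatives. IMP3 and IMP4, which pair U3 with the precursor, measured 73.6 ± 5.80 and 71.3 ± 2.89 TPM, and 169 ± 12.4 and 174 ± 9.56 TPM (SD, n = 6 each). UTP20, a large scaffold protein, measured 15.6 ± 1.06 and 15.0 ± 1.08 TPM (adjusted p = 0.624). With median-of-ratios scaling, TMM factors or quantile normalisation 1 of the 16 passed, where 8.82%, 9.09% and 9.9% of all tested genes rose. These 16 genes, which do not include NOL7, were then not above the share of all genes. The count of the 16 was 2 without normoxia replicate 1 or 5 or hyperoxia replicate 1, 2 or 3, and 3 without normoxia replicate 4 or hyperoxia replicate 5. Of all tested genes 9.08% to 10.8% rose without 1 of these samples. UTP14C, a retrogene copy of UTP14A, shares 74.2% of its exonic bases with ALG11 in GENCODE 29, and its level near 2.6 TPM is uncertain.

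The late 40S factors act on the precursor as it leaves the nucleolus and matures in the cytoplasm. Of 9, 5 rose and 4 did not pass, with a median of 0.22, where 11.7% of all tested genes rose. NOB1 (ENSG00000141101), the endonuclease that makes the final cut at the 3′ end of 18S ribosomal RNA, had little spread within each group. It ran from 77.7 to 84.8 TPM in normoxia (median 79.5) and from 102 to 107 TPM in hyperoxia (median 105.5), with a clear gap between them. The rise was 0.39 (SE 0.03, adjusted p = 2.35e-06). An antisense gene covers 20.2% of the exonic bases of NOB1 in GENCODE 29 and was listed at 0.04 and 0.32 TPM.

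BYSL (ENSG00000112578), a factor of pre-40S export, rose from 53.5 ± 3.34 to 65.8 ± 4.57 TPM (SD, 6 samples a group; log2 fold change 0.29, adjusted p = 0.00238). RRP12, its partner in export, rose by 0.28 (adjusted p = 0.00226) and TSR1, a GTPase-like late factor, by 0.22 (adjusted p = 0.00226). All 3 had separate groups and kept their calls in every alternative. SRR, on the opposite strand, covers 20.7% of the exonic bases of TSR1. LTV1, another export factor, rose by 0.17 and lost its call in 13 of the 26 alternatives. AL049844.3, on the same strand, covers 27.7% of the exonic bases of LTV1 and was listed at 0 TPM in both groups. PNO1 (ENSG00000115946), an RNA-binding partner of NOB1, went from 42.1 ± 3.23 to 50.5 ± 6.92 TPM and did not pass (log2 fold change 0.25, SE 0.09, adjusted p = 0.0603).

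In 60S assembly 9 of 18 genes rose and 9 did not pass, all 18 with a positive fold change and a median of 0.22. Of all tested genes 11.7% rose. NOP2 (ENSG00000111641), a methyltransferase of 28S ribosomal RNA and a proliferation marker, ran from 97.9 to 108 TPM in normoxia (median 100.4) and from 125 to 142 TPM in hyperoxia (median 133). No hyperoxia sample came near the normoxia range, and the rise was 0.39 (SE 0.04, adjusted p = 1.89e-05). The overlapping gene AC006064.6 on the same strand shares 54.4% of the exonic bases of NOP2 in GENCODE 29 and was listed at 22.3 and 27.5 TPM, so reads of the pair may have been split.

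NOC2L (ENSG00000188976) and NOC3L (ENSG00000173145), of the complexes that carry the pre-60S particle out of the nucleolus, both rose, from 121 ± 8.78 to 147 ± 4.47 TPM and from 34.6 ± 1.74 to 42.4 ± 3.63 TPM (SD, n = 6 each). Their log2 fold changes were 0.28 in each case, with separate groups. The 2 pseudogene copies of NOC2L summed to 18.5 and 15.8 TPM. NOL8 rose by 0.27 and RRP1B by 0.23, also with separate groups, RRP1 by 0.26 and NOP16 by 0.22. GNL2 (ENSG00000134697), a GTPase that licenses nuclear export, rose by 0.29 (SE 0.07, adjusted p = 0.0121) with 5 of 6 hyperoxia samples above the normoxia range. The sixth, hyperoxia replicate 6, lay inside it at 75 TPM. NOP16 lost its call in 16 of the 26 alternatives.

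The PeBoW complex of PES1, BOP1 and WDR12, which is needed to make 28S and 5.8S ribosomal RNA, had 1 of its 3 genes pass. With so few genes, and with 11.7% of all tested genes rising, this count is no result about the complex. PES1 (ENSG00000100029) rose from 85.7 ± 5.09 to 100.4 ± 5.38 TPM (SD, 6 samples a group; log2 fold change 0.23, adjusted p = 0.00485). BOP1 (ENSG00000261236) measured 102 ± 7.08 and 104 ± 2.95 TPM (adjusted p = 0.638) and WDR12 (ENSG00000138442) 49.1 ± 3.41 and 54.5 ± 4.09 TPM (adjusted p = 0.101). GNL3, the stem cell-associated GTPase nucleostemin, went from 127 ± 7.16 to 142 ± 12.5 TPM without passing (adjusted p = 0.0604). RRP8, a methyltransferase, had a fold change of 0.31 with a wide spread (SE 0.13, adjusted p = 0.118). RRP8 and the members that passed beyond the 12 largest changes were picked with their values in view.

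The exosome is a ring of 6 subunits with a cap of 3 and attached nucleases. The members are the ring, the cap and the nuclease EXOSC10, while the catalytic subunit DIS3 is counted with the cofactors. Of 10 genes 3 rose and 7 did not pass, with a median of 0.12, where 11.7% of all tested genes rose. At an unadjusted p below 0.05 there were 5 higher and 1 lower of the 10, beside 19.7% and 10.9% of all tested genes. EXOSC9 (ENSG00000123737), of the ring, rose from 38.2 ± 1.32 to 44.7 ± 2.53 TPM (SD, 6 samples a group; log2 fold change 0.22, adjusted p = 0.00365) with separate groups and kept its call in every alternative. EXOSC1, of the cap, and EXOSC7, of the ring, rose by 0.17 and 0.14 but lost their calls in 16 and 11 of the 26 alternatives. In all, 1 of the 10 rose with each of the 3 other scalings and without normoxia replicate 2 or 6 or hyperoxia replicate 2, 3 or 5. Of all tested genes 8.82% to 9.9% rose with these scalings and 9.08% to 10.7% without 1 of these samples. The exosome count was then near the share of all genes. EXOSC10, the nuclear exonuclease, measured 76.6 ± 2.96 and 79.9 ± 2.42 TPM (adjusted p = 0.257) and the ring subunit EXOSC4 55.7 ± 3.10 and 61.8 ± 5.41 TPM (adjusted p = 0.103).

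EXOSC8 (ENSG00000120699), a ring subunit named here after its values were seen, was the member with the lowest fold change at -0.14 (SE 0.05, adjusted p = 0.0545). It ran from 75.9 to 89.6 TPM in normoxia (median 83.1) and from 72.9 to 81.1 TPM in hyperoxia (median 74.8), so the groups overlapped. Normoxia replicates 1 to 3, at 86.1, 89.6 and 88.6 TPM, lay above the hyperoxia range. Replicates 4 to 6, at 75.9, 79.1 and 80.1 TPM, lay inside it. EXOSC8 passed as lower with a minimum mean of 5 TPM, with median-of-ratios scaling, with quantile normalisation and without normoxia replicate 4, hyperoxia replicate 1 or normoxia replicates 4 to 6. It did not pass in the other 20 alternatives, and its adjusted p ran from 0.0115 to 0.488. In the authors' deposited table its log2 fold change was -0.18 with an adjusted p of 0.00539.

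Of the 3 genes that matched by symbol and were not assigned an assembly role here, NOL7, a nucleolar protein, rose by 0.23 (adjusted p = 0.00125) with separate groups. It kept its call in every alternative and is not counted in the SSU processome numbers above. NOL3, which encodes an apoptosis repressor of the cytoplasm, measured 11.7 ± 1.34 and 11.7 ± 1.76 TPM. NOL4, known from neural tissue, was the 1 member under the minimum at 0.74 ± 0.21 and 0.93 ± 0.25 TPM (SD, n = 6 each) and was not tested. Without these 3, 32 of 72 rose.

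In each sample, the median deviation of the 74 tested members from their normoxia means separated the groups. It ran from -0.03 to 0.05 in the normoxia samples and from 0.08 to 0.25 in the hyperoxia samples on the log2(TPM + 1) scale. The same median over all tested genes ran from -0.07 to 0.04 and from -0.02 to 0.06. Hyperoxia replicates 6 and 4 had the smallest medians, 0.08 each, and replicate 2 the largest, 0.25. Of the 33 genes that rose, 22 had their lowest hyperoxia value in replicate 6 and 9 in replicate 4. The hyperoxia samples thus differed among themselves across many members at once, and leaving out 1 sample at a time gave 23 to 37 members higher. The lowest number came without hyperoxia replicate 2 and the highest without hyperoxia replicate 4.

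**Figure D4:**
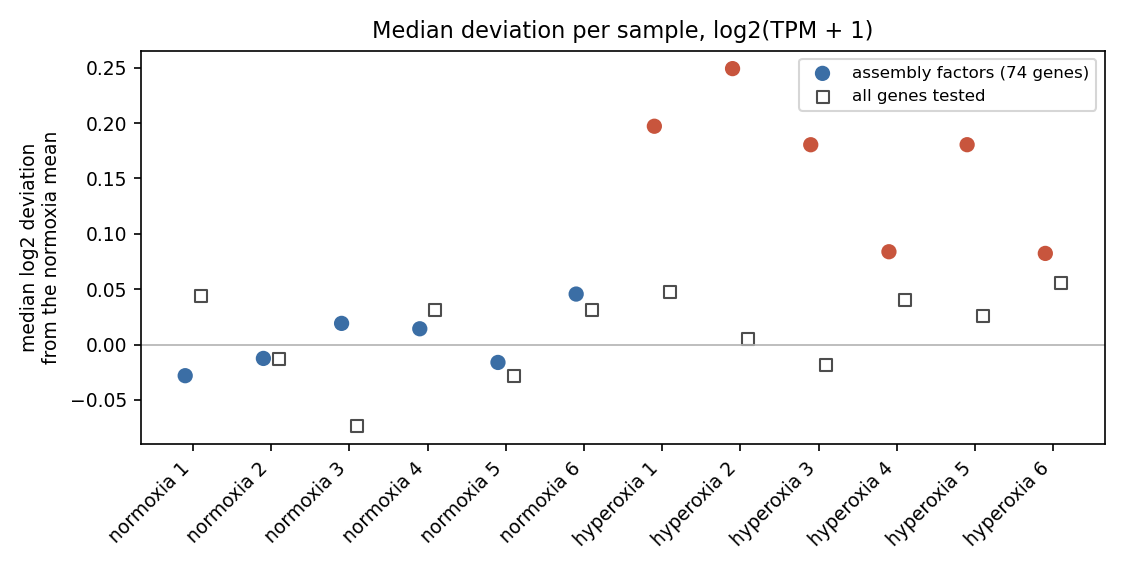
Median deviation from the normoxia mean (y axis, log2(TPM + 1)) in each of the 12 samples, for the 74 tested assembly factors (circles, blue normoxia, red hyperoxia) and for all tested genes (squares). The circles of hyperoxia lie between 0.08 and 0.25, above every normoxia sample, while the squares of the groups overlap.

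The normoxia samples fell apart along the second principal component of all genes (11.7% of the variance), replicates 1 to 3 at positive and replicates 4 to 6 at negative values. They were also apart on the first (20.7%), the axis that separated the groups, with replicates 1 to 3 between -9.44 and -5.12, replicates 4 to 6 between -33.3 and -18.7 and the hyperoxia samples between 11.3 and 19.8. What separates them is not in the labels. Without normoxia replicates 4 to 6, 20 members rose and EXOSC8 fell, where 6.76% of all tested genes rose. Without normoxia replicates 1 to 3, 18 members rose and none fell, where 5.35% rose. The median log2 fold change of the members was 0.145 and 0.159. NOLC1, NOP2, NOB1, NCL, DKC1, BYSL, RRP12, TSR1, NOC2L, NOC3L, NOL7, NOL8, NOP14, UTP4 and EXOSC9, 15 in all, rose in every one of the 26 alternatives. The share of all tested genes that rose in every alternative was not computed, so the 15 cannot be set against it.

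Other genes of the pathway that the symbol rule does not match were read in the same fit, where 11.7% of all tested genes rose and 5.63% fell. Of 32 further 40S factors 11 rose and none fell, with a median of 0.13, among them KRR1 from 70.1 ± 4.12 to 93.5 ± 11.9 TPM, DNTTIP2 by 0.37 and the kinase RIOK1 by 0.29. Of 47 further 60S factors 14 rose and 1 fell, with a median of 0.13, led by the helicases DDX27, by 0.38, and DDX24, by 0.30, and by RSL1D1, by 0.32. Of 15 genes of RNA polymerase I, the enzyme that makes the precursor RNA, 7 rose and none fell, among them the subunit POLR1E by 0.30, the initiation factor RRN3 by 0.21 and the selectivity factor subunit TAF1A by 0.31. Of 10 exosome cofactors 3 rose and none fell, namely MPHOSPH6 by 0.33, the nuclease ERI1 by 0.29 and the catalytic subunit DIS3 by 0.24. With the 3 other scalings the further 40S factors had 7, 7 and 9 higher, the further 60S factors 12, 13 and 14, and RNA polymerase I 4 each. Over all tested genes 8.82%, 9.09% and 9.9% rose with these scalings.

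The cytosolic ribosomal protein genes, whose products these factors build into subunits, had the opposite balance. Of 84 tested none rose and 12 fell (14.3%), with a median of -0.05, where 11.7% of all tested genes rose and 5.63% fell. At an unadjusted p below 0.05 there were 3 higher and 29 lower, beside 19.7% and 10.9% of all tested genes. RPL10A fell from 1868 ± 60.3 to 1555 ± 36.2 TPM, RPL31 from 2115 ± 134 to 1683 ± 53.2 TPM and RPL3 from 2486 ± 47.5 to 2092 ± 102 TPM (SD, n = 6 each). Their counts were 0 higher and 11 lower with median-of-ratios scaling, 0 and 9 with TMM factors, and 5 and 8 after quantile normalisation, where the upward calls appeared. Over all tested genes 8.8%, 8.31% and 8.32% fell with these 3 scalings, and 8.82%, 9.09% and 9.9% rose. The share of ribosomal protein genes that fell after quantile normalisation was thus near that of all genes. The difference between the ribosomal protein genes and the assembly factors was not tested.

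**Figure D5:**
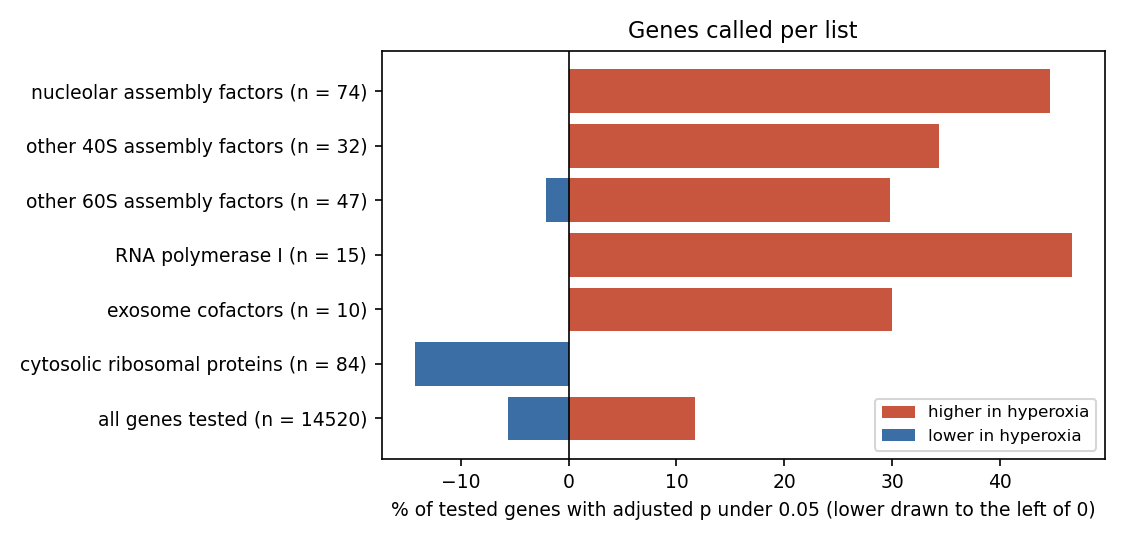
Share of tested genes with an adjusted p below 0.05 (x axis, %, lower genes drawn to the left of 0) in the assembly factors, 5 related lists and all genes. All 33 calls of the assembly factors point up and all 12 of the ribosomal proteins point down, with TPM as deposited.

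The members were expressed at a high level for length-scaled values. Their median over the samples was 57.9 TPM and the range of the tested members ran from 1.10 TPM for EXOSC6 to 2926 TPM for NPM1, beside a median of 13.9 TPM over all tested genes. NPM1 ranked 49 and FBL 142 of the 14520. Among the 8455 genes of at least 10 TPM, 16.2% rose, which is above the 11.7% over all tested genes and below the members' 44.6%. In the authors' deposited annotation 68 of the 75 members carried the term nucleolus, against 6.4% of tested genes, and 59 the term rRNA processing, against 1.21%. In GENCODE 29, 9 of the 74 tested members (12.2%) held a snoRNA gene within their bounds on the same strand, against 2.33% of tested genes, among them NOP56, NOP58, GNL3, NCL and WDR43. Of these 9 genes 3 rose (DKC1, NCL and TSR1). Of 26 such snoRNAs in the table, 23 were listed at 0 in all 12 samples.

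By the authors' deposited table, 35 members had an adjusted p below 0.05 with a positive and 1 with a negative fold change, beside 15.7% and 14.3% of the 14520 genes tested here by the same table. Of the 33 genes that rose here 28 were among those 35. None of the members was among the 357 genes the authors marked as significant, the smallest of which had an absolute log2 fold change of 1.00. The largest of a member in that table was 0.45, for NOLC1.

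The 12 samples had TPM totals from 996138 to 998797. Checked against the labelled tumour type, the lung surfactant genes SFTPC and SFTPA1 were listed at 0, and the lung and epithelial markers NKX2-1, NAPSA and EPCAM were below 1 TPM in every sample. KRT8, KRT18 and VIM were between 551 and 3523 TPM. The blood cell markers PTPRC, CD3E and HBB were at or near 0. CD68 was at 44.5 TPM in each group. In 78 genes, MYC among them, the authors' log2 fold change was not the log2 of their fold change; no member was one of these, and MYC is not described for that reason.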

How the data were processed

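RNA of 12 H1299 samples was analysed from 1 deposited table. HTSeq 0.9.1 and edgeR 3.16.5 are the tools that the submitters' processing notes list, without their roles. No source used here gives the aligner, the annotation or the TPM step. The labels name a TruSeq kit and the design text a directional kit after ribosomal RNA removal, so the use of strand is not settled. The notes list mm9, although the identifiers are human Ensembl ones, so coordinates come only from RefSeq's own promoter table. Per the file headers the deposited per-sample values and group means are TPM, although the table is named for another unit, and depth is unknown because TPM keeps none. The authors' deposited comparison holds a linear ratio (fold), the log2 of it, and raw and adjusted p-values; a length column (other) was not used. 1 row without an identifier was dropped.

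Groups came from the titles. limma 3.58.1 in R 4.3.3 (eBayes with trend) was run on log2(TPM + 1) for genes with a mean of at least 1 TPM, as a two-sided test, with Benjamini-Hochberg adjustment over all tested genes at 0.05; no covariates. It was tested on simulated data. Named genes were up to 12 largest calls each way, 26 key factors, the 5 most abundant members and those under the minimum, and up to 3 of each related list by smallest p; others were added after their values were seen. The members and lists were chosen with earlier results of these data known. Alternatives were pseudocount 0.1, no filter or 5 TPM, 3 scalings, eBayes settings, weights per sample, a replicate block, leave-outs and the exact rank-sum test. Fits without the 78 disagreeing genes, without normoxia replicates 4 to 6 and without 1 to 3 were chosen after seeing the data. Exonic overlaps and snoRNAs came from GENCODE 29.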

Additional observations from a re-analysis of the deposited data

Results flagged for a closer look

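The ring subunit EXOSC8 had 1 hyperoxia sample apart from the other 5: the highest was at 81.08 TPM, the next at 75.78 TPM and the lowest at 72.85 TPM, a gap beyond Dixon's 95% critical value for 6 samples. It was the only one of 124 groups tested, where chance gives about 1 in 20.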

How the results depend on the processing

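The number of members higher (33) fell to 21 with median-of-ratios scaling, 21 with TMM factors and 21 after quantile normalisation, to 20 without normoxia replicates 4 to 6 and to 18 without 1 to 3; the last 2 fits had fewer samples. Members lower (0) became 1 (EXOSC8) with a minimum of 5 TPM, median-of-ratios scaling, quantile normalisation and without normoxia replicates 4 to 6, and ranged from 0 to 1 when single samples were left out. Over all genes, 2516 calls (1698 higher, 818 lower) became 1354 (980 and 374) without normoxia replicates 4 to 6 and 1227 (776 and 451) without 1 to 3; leaving out single samples gave 1958 to 2452 (1317 to 1563 and 602 to 937). Lower calls were 1277 with median-of-ratios scaling and 515 in the exact rank-sum test, and with no filter 1253 genes were higher and 566 lower. Without single samples, members higher ran from 23 to 37 and their median log2 fold change from 0.138 to 0.173; without the 78 genes they stayed at 33. The cause of these shifts was not tested.

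Signs turned only in genes that passed in no fit. FBL was -0.00685 with median-of-ratios scaling and -0.00107 with TMM factors, and ran from -0.0214 to 0.0691 when samples were left out, singly or the normoxia replicates 1 to 3 or 4 to 6. NPM1 was -0.0157 and -0.00995 with these scalings and ran from -0.00748 to 0.0476. NOP58 was 0.00219 with sample weights and ran from -0.032 to 0.0308, IMP3 from -0.091 to 0.00878, BOP1 from -0.0417 to 0.112 and IMP4 from -0.0368 to 0.123. Same-numbered samples shared only a number (correlations of deviations -0.117 to 0.0169); the replicate block gave 33 members higher, 29 of them shared, and none lower. TPM gives no depth, so no counting limit could be set.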
